A study of Drosophila melanogaster with 6 samples.

Results

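The genes described here act where a cell leaves metaphase: the activator of the ubiquitin ligase that starts anaphase, securin and the separase proteins it holds in check, the spindle checkpoint, the mitotic B-type cyclins, the kinase polo and a microtubule bundler of the spindle midzone. They were chosen by symbol from 10 listed genes, as the probe sets that the platform annotation assigned to exactly 1 of them, and 8 of the 10 had a probe set, of 11982 genes in all with a probe set of 1 symbol. BubR1 and polo were not analysed here. The 8 genes had 10 probe sets, because fzy had 3 and each of the others had 1.

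RNA was measured in Drosophila SL2 cells, an established embryonic line that resembles haemocytes, the blood cells of insects, on 1 single-colour oligonucleotide array per culture. In the ISWI group, 3 cultures received double-stranded RNA (dsRNA) directed against ISWI, whose gene Iswi encodes the ATPase of several nucleosome remodelling complexes. In the GST group, 3 cultures received dsRNA directed against GST. Both groups were of the same line and had the same handling: 10 micrograms of dsRNA for 1 hour without serum, then serum-containing medium and harvest after 7 days without passaging. The replicates are called biological in the series design, and no untreated cells were measured. The question was which of these mitotic transcripts differed when Iswi was depleted.

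In the fly, as in other animals, sister chromatids are held together until the anaphase-promoting complex or cyclosome (APC/C), a ubiquitin ligase, is switched on by its activator fzy, the homologue of Cdc20. It then marks securin (pim) and B-type cyclins for destruction, which frees separase to cut cohesin and lets the cell leave mitosis. The spindle checkpoint, in which Bub3, BubR1 and mad2 take part, holds fzy back until every kinetochore is attached. Many of these proteins are made and destroyed in each cycle, and their transcripts are known from dividing tissues such as early embryos and larval brains.

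The depletion of the target and the state of the arrays were looked at first. The Iswi probe set read 10.53, 10.54 and 10.47 on the GST arrays and 7.66, 7.74 and 7.16 on the ISWI arrays (log2 values, replicates 1 to 3), so that 12.6% of the GST level was left. The difference was -2.99 with a standard error of 0.14 (limma adjusted p = 7.61e-06), and a two-sided exact permutation test over the 6 arrays reached its lower limit of p = 0.1. Across the tested probe sets, which are not independent of each other, pairs of GST arrays correlated at 0.9970 to 0.9979, pairs of ISWI arrays at 0.9917 to 0.9938 and mixed pairs at 0.9647 to 0.9759. ISWI replicate 2 had the largest 3′ minus 5′ difference of the actin control probe sets, at 1.06 against 0.40 to 0.55 on the other arrays, and GST replicate 1 had the highest mean of the 18S rRNA probe sets, at 12.99 against 8.31 to 9.30. All 10 plasmatocyte (phagocytic haemocyte) markers examined passed the filter for testing (over 4 on the log2 scale in 3 or more arrays), among them Hml, srp and NimC1. Of 6 neuron and muscle markers with a probe set, Act88F, Mlc2, nSyb and up did not exceed 4 on any array, while elav read 6.26 to 7.13 and brp 6.48 to 6.96 over the 6 arrays. Of these last 2, elav was not called and brp was called lower at -0.29 (limma adjusted p = 0.0454), a call lost without any array but ISWI replicate 1.

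Of the 8 members, 3 fell and 1 rose when Iswi was depleted, and 4 did not pass the test. The activator gene fzy fell to 53.2% of the GST level, the midzone gene feo to 63.6% and the checkpoint gene Bub3 to 82.1%, and the securin gene pim rose to 1.40-fold. The genes that did not pass were thr, Sse, CycB and CycB3. A call was a limma adjusted p below 0.05 over all 7390 tested probe sets, of which 40.2% passed, 22.1% as higher and 18.1% as lower. That excess of higher calls depends on the scaling, with 1634 higher and 1340 lower as deposited and 1476 higher and 1510 lower when the arrays were centred. The share among members, 4 of 8, lay near that background, and what follows is about the single genes. The median change of the 8 tested member probe sets was -0.18 on the log2 scale, against 0.01 over all tested probe sets, and the median size of change was 0.24 against 0.20. The groups did not overlap for 6 of the 8, against 54.1% of all tested probe sets. Cultures were measured in bulk, so a changed share of cells in any stage of the cycle and a changed RNA level per cell cannot be told apart.

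**Figure D1:**
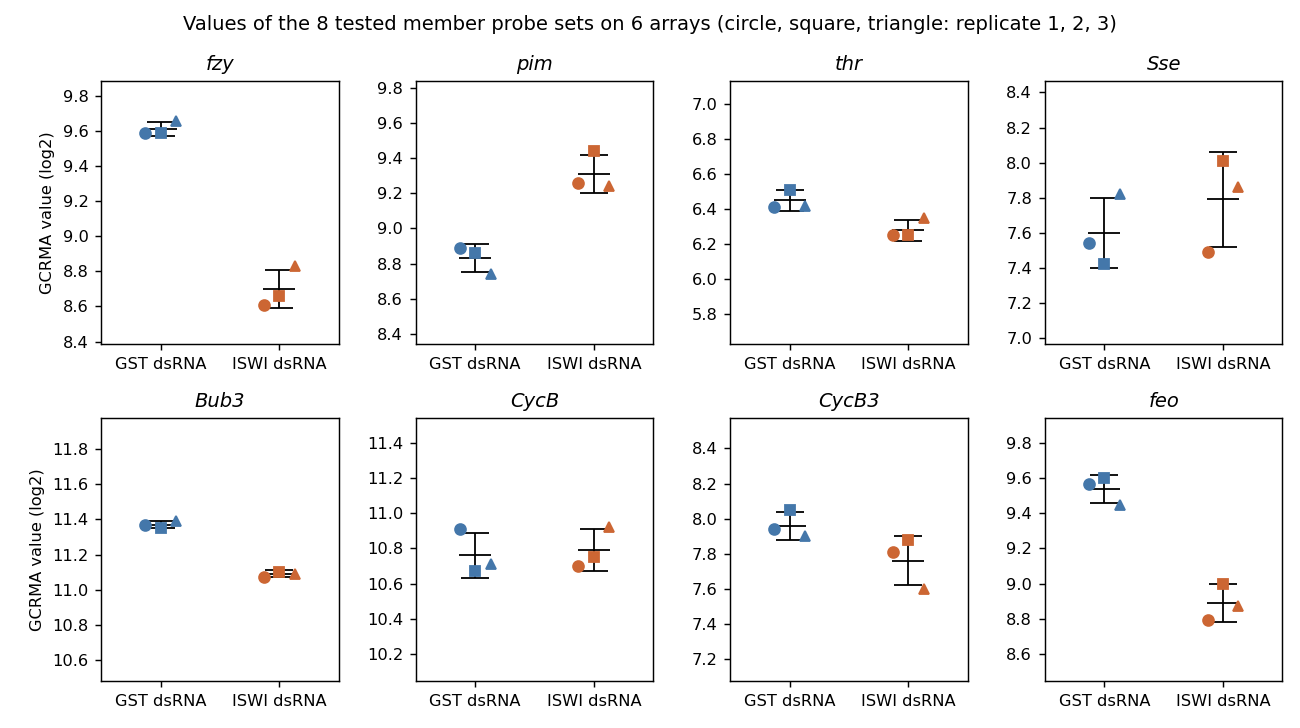
Deposited log2 values of the 8 tested member probe sets on the 3 GST arrays (blue) and the 3 ISWI arrays (orange), with mean and SD (n = 3) in black. Every panel spans the same log2 range around its own midpoint. For fzy, feo and Bub3 every ISWI array lies below every GST array, for pim every ISWI array lies above, and for Sse and CycB the groups overlap.

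The fzy probe set that gave a signal read 9.59, 9.59 and 9.66 on the GST arrays and 8.61, 8.66 and 8.83 on the ISWI arrays. The highest ISWI value lay 0.76 below the lowest GST value, far more than the SD of 0.04 in the GST group and 0.11 in the ISWI group (n = 3 each). The log2 fold change was -0.91 with a standard error of 0.07 and a 95% confidence interval of -1.08 to -0.74 (limma adjusted p = 8.81e-05). A 1.88-fold fall is a large one in this experiment, as 94.0% of the tested probe sets had a smaller absolute change. The platform assigns a further 2 probe sets to fzy. One read 2.19 to 2.37 and the other 2.16 to 2.22 over all 6 arrays, well below the level of 4 required for testing, so neither was tested. The fzy result thus rests on 1 probe set.

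The securin gene pim, whose product is the substrate that fzy helps the APC/C to destroy, moved the other way. It read 8.89, 8.86 and 8.74 on the GST arrays and 9.26, 9.44 and 9.24 on the ISWI arrays. All ISWI values lay above all GST values, with a gap of 0.35. The log2 fold change was 0.48 with a standard error of 0.08 and an interval of 0.30 to 0.67 (limma adjusted p = 0.00252), a larger change than 82.4% of the tested probe sets had.

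The separase genes did not pass. Drosophila separase is made as separate proteins, the protease Sse and its partner thr, and pim binds the complex. Sse read 7.54, 7.42 and 7.82 on the GST arrays and 7.49, 8.01 and 7.86 on the ISWI arrays, and the ISWI range enclosed most of the GST range. Its difference was 0.19 with a standard error of 0.15, the largest standard error among the members, and the interval of -0.16 to 0.55 runs from 89.3% to 147% of the GST level (limma adjusted p = 0.347). The thr probe set read 6.41, 6.51 and 6.42 on the GST arrays and 6.25, 6.25 and 6.35 on the ISWI arrays. These groups did not overlap, yet the gap was only 0.07, and the difference of -0.17 with a standard error of 0.09 did not pass (limma adjusted p = 0.167, interval 77.0% to 103% of the GST level). A rise of securin was therefore called in the same arrays in which no change was called for either separase gene, and whether pim differed from Sse or thr in its change was not tested.

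Bub3, the WD40-repeat adaptor that brings checkpoint kinases to kinetochores, had the smallest spread of all the members. It read 11.37, 11.35 and 11.39 on the GST arrays and 11.07, 11.10 and 11.09 on the ISWI arrays. Both groups had an SD of 0.02 (n = 3), and they lay 0.25 apart. The log2 fold change was -0.28 with a standard error of 0.04 and an interval of -0.39 to -0.18 (limma adjusted p = 0.00172). The fall is small in size, 1.22-fold, and 64.2% of the tested probe sets had a smaller change. This call thus rests on a small standard error, in which limma moderates the variance along the intensity trend, more than on the size of the fall.

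The B-type cyclins bind Cdk1 and act in mitosis, and their loss allows exit from it. CycB read 10.91, 10.67 and 10.71 on the GST arrays and 10.70, 10.75 and 10.92 on the ISWI arrays, and the groups overlapped almost fully. The difference was 0.03 with a standard error of 0.08 (limma adjusted p = 0.814), and the interval of -0.17 to 0.22 leaves room for a level between 89.1% and 117% of that in the GST group. With the arrays centred on their medians the difference was -0.0022, so no direction is given for CycB. CycB3 read 7.94, 8.05 and 7.90 on the GST arrays and 7.81, 7.88 and 7.60 on the ISWI arrays. The groups were separated by 0.02, and the difference of -0.20 with a standard error of 0.09 did not pass (limma adjusted p = 0.134, interval 75.1% to 102% of the GST level). A change of CycB as large as the fall of fzy or of feo lay outside its interval.

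The midzone gene feo (fascetto) encodes the fly homologue of PRC1, which bundles antiparallel microtubules between the separating chromosomes and is needed for cytokinesis. It read 9.57, 9.60 and 9.45 on the GST arrays and 8.79, 9.0 and 8.87 on the ISWI arrays. All ISWI values lay below all GST values, with a gap of 0.45. The log2 fold change was -0.65 with a standard error of 0.08 and an interval of -0.83 to -0.47 (limma adjusted p = 0.000501), and 89.2% of the tested probe sets had a smaller change.

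**Figure D2:**
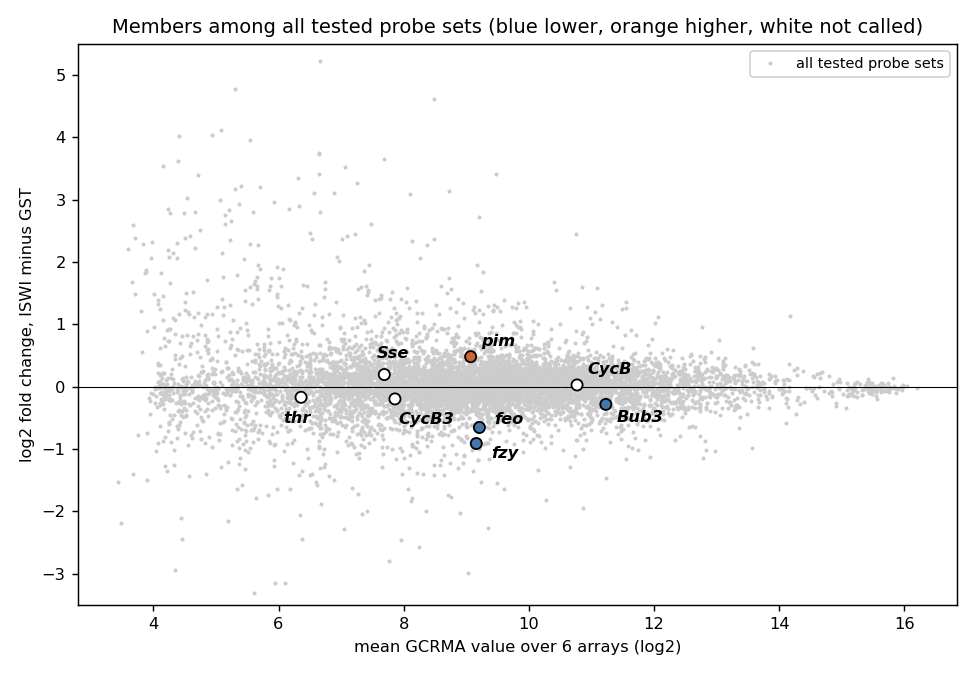
Log2 fold change (ISWI minus GST) against the mean log2 value over 6 arrays for all 7390 tested probe sets (grey) and the 8 member probe sets (large circles). The circles of fzy at -0.91 and feo at -0.65 lie lowest, that of pim at 0.48 lies highest, and that of CycB lies at the zero line.

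The calls did not rest on a single array. With each array left out in turn, the change of fzy ran from -0.98 to -0.87, that of feo from -0.71 to -0.61, that of Bub3 from -0.29 to -0.27 and that of pim from 0.42 to 0.52. Without ISWI replicate 2, the array with the large 3′ minus 5′ difference, the values were -0.89 for fzy, -0.71 for feo, -0.29 for Bub3 and 0.42 for pim. Without GST replicate 1, the array with the high 18S rRNA signal, they were -0.92, -0.64, -0.28 and 0.51 in the same order. The same 4 probe sets were called in all 15 other settings tested. The uncalled Sse moved more, from 0.08 without ISWI replicate 2 to 0.34 without ISWI replicate 1, and passed in neither case.

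**Figure D3:**
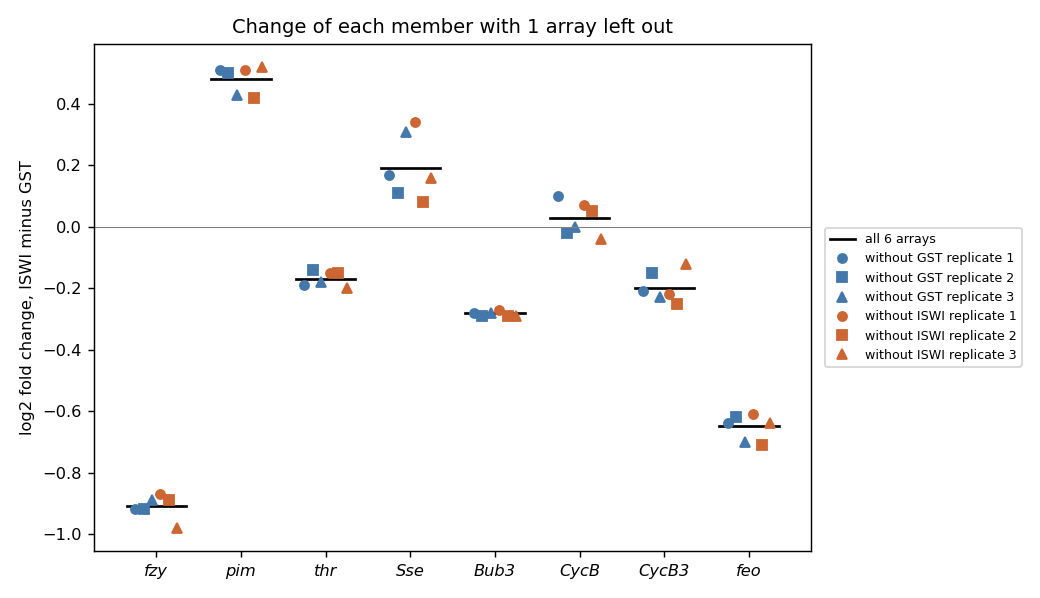
Log2 fold change (ISWI minus GST) of each tested member with 1 array left out (symbols, blue for GST arrays and orange for ISWI arrays) and with all 6 arrays (black line). The symbols for fzy, feo, Bub3 and pim stay on 1 side of zero, and those for CycB lie on both sides.

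The rest of the pathway was read through 6 lists of genes with related roles, in which 48 genes were tested. No probe set was found by symbol for Cdk1, CycA, aurA, stg, Wee1, Myt1, mts, pav, Klp3A, sti, vtd, E2f1, RnrS, dap, geminin and lmgA. Those of APC7 and Nipped-B did not pass the filter, so the lists say nothing on any of these genes. Of the 48 tested genes, 3 rose and 4 fell, which is 14.6%. The share was 41.1% of all 6011 tested genes (23.4% higher and 17.6% lower), where the probe set with the highest mean stood for each gene. Without GST replicate 3 the count was 2 and 2. The largest changes among the tested genes of the 6 lists were -0.52 and 0.63, both smaller than the fall of fzy. Both were larger in size than the changes of pim (0.48) and Bub3 (-0.28). Members and lists were chosen with earlier results of these data known, so this order of sizes is descriptive only.

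No APC/C gene passed. The list of subunits, the second activator fzr and the inhibitor Rca1 had 10 tested genes, of which 0 rose and 0 fell by limma, and 2 had an unadjusted p below 0.05. Their changes ran from -0.24 for shtd, the subunit APC1, to 0.22 for mr, the cullin-like subunit APC2, both named after their values were seen. The mr probe set read 8.90, 8.89 and 8.80 on the GST arrays and 9.09, 9.20 and 8.97 on the ISWI arrays, and its limma adjusted p = 0.05005 lay at the threshold. Settings such as array weights and the higher filter gave 1 higher APC/C gene, and centring the arrays gave 1 lower. The median change of the list was -0.02, beside 0.03 for all tested genes.

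Among the other checkpoint and kinetochore genes, 1 of 8 rose and 2 fell. The checkpoint gene mad2, whose product binds fzy directly, read 9.06, 9.09 and 9.01 on the GST arrays and 9.32, 9.35 and 9.56 on the ISWI arrays, and rose by 0.36 with a standard error of 0.08 (limma adjusted p = 0.00919). It lay higher on all 3 ISWI arrays, while its partner in the checkpoint, Bub3, lay lower on all 3. The checkpoint kinase gene Mps1 fell by 0.39 and Zw10, of the complex that recruits dynein to kinetochores, fell by 0.32, with limma adjusted p = 0.0174 and 0.0144. Both of these calls were lost without GST replicate 3 (adjusted p = 0.0567 and 0.0592), and that of Mps1 also without GST replicate 1 (0.0688) and with all probe sets tested regardless of level (0.0523). The list had a median of -0.14.

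Of 12 listed mitotic kinase, phosphatase and cyclin genes, only 5 were tested. Among these, bora, encoding an activator of the Aurora A kinase, rose and 0 fell. It read 6.61, 6.31 and 6.58 on the GST arrays and 7.20, 7.12 and 7.07 on the ISWI arrays, a difference of 0.63 with a standard error of 0.11 (limma adjusted p = 0.00264). All ISWI arrays lay above all GST arrays. The median change of this list was 0.15, and 2 genes rose without ISWI replicate 3.

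At the midzone, where feo acts, 1 of 8 passenger complex and cytokinesis genes rose and 1 fell. Incenp, the scaffold of the chromosomal passenger complex, read 10.54, 10.58 and 10.70 on the GST arrays and 10.11, 10.26 and 9.91 on the ISWI arrays, and fell by 0.52 with a standard error of 0.09 (limma adjusted p = 0.00357). Det (Deterin), the survivin homologue of the same complex, rose by 0.33 with a standard error of 0.08 (limma adjusted p = 0.0146), a call lost without GST replicate 2 and without GST replicate 3 (adjusted p = 0.0636 and 0.0564). The kinase of the complex, aurB, and its subunit borr did not pass, at 0.21 and -0.10. The list had a median of 0.05.

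Of 9 tested cohesin genes and regulators 0 rose and 1 fell. This was eco, the acetyltransferase that establishes cohesion, with values of 9.33, 9.32 and 9.28 on the GST arrays and 8.97, 9.01 and 9.12 on the ISWI arrays and a difference of -0.28 (standard error 0.07, limma adjusted p = 0.0113). The median of the list was 0.09. Without any single ISWI array, and also with the higher filter, without the intensity trend or with array weights, 1 gene rose and 1 fell. The protector of cohesion mei-S332, named after its value was seen, lay near the threshold at 0.25 (limma adjusted p = 0.0508). Genes of the G1/S transition and of DNA synthesis, taken as a reading of the cycle outside mitosis, gave 0 calls among 8 tested by limma, with 2 at an unadjusted p below 0.05 and a median of 0.04. Their changes ran from -0.38 for Rbf, the retinoblastoma-family gene (limma adjusted p = 0.116), to 0.17 for CycE. The genes with an unadjusted p below 0.05 were the replication licensing gene dup at -0.17 and E2f2 at 0.13. In that list PCNA, the replication clamp, read 10.72, 10.68 and 10.77 on the GST arrays and 10.79, 10.79 and 10.70 on the ISWI arrays. RnrL, the large subunit of ribonucleotide reductase, differed by 0.05 (interval -0.07 to 0.17). These G1/S and DNA synthesis genes were named after their values were seen.

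**Figure D4:**
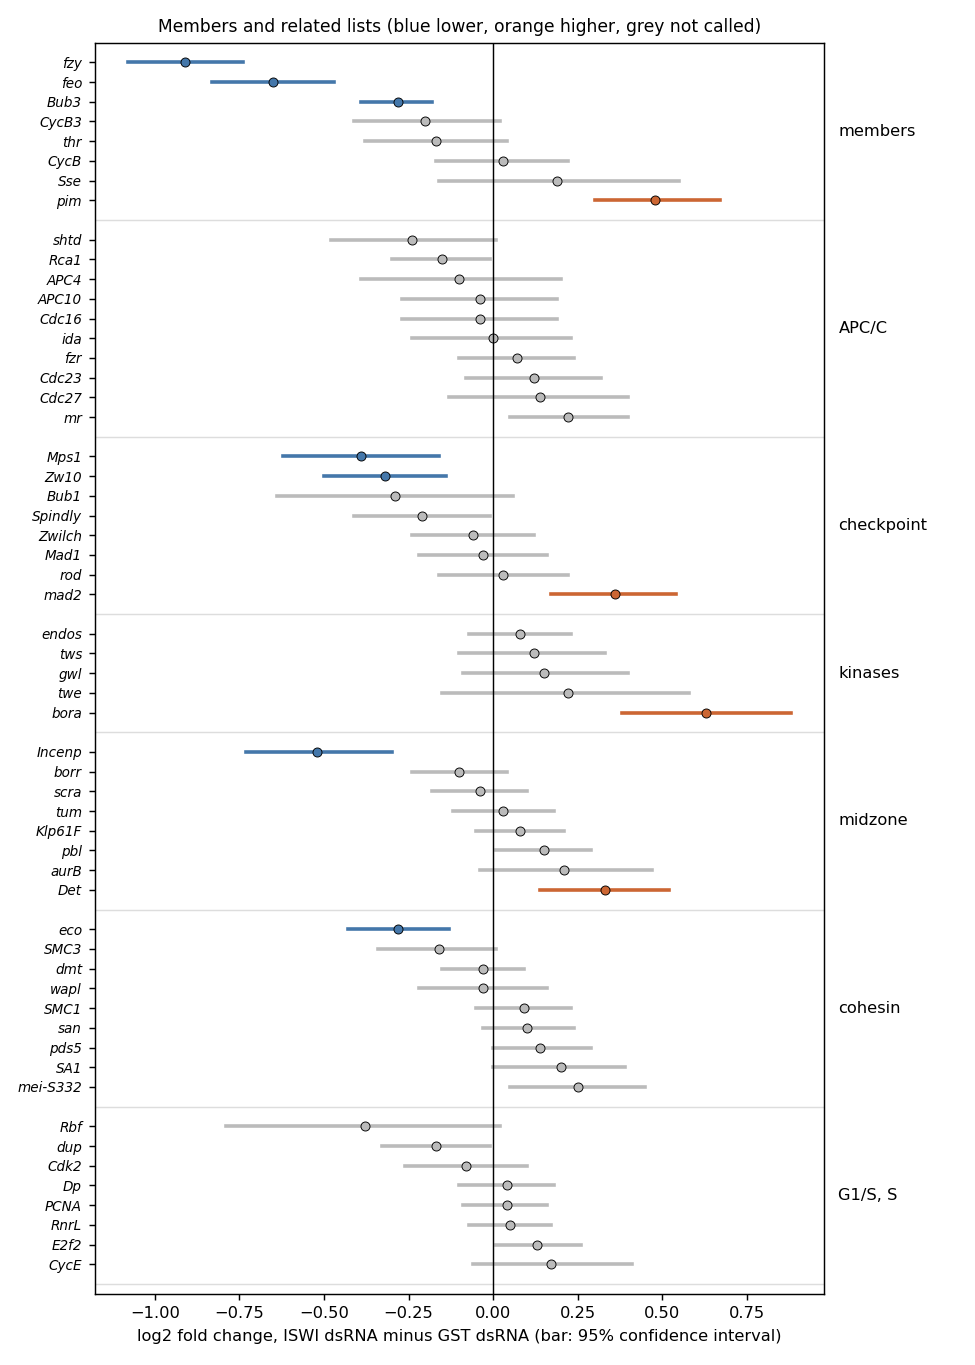
Log2 fold change (ISWI minus GST) with 95% confidence interval for the 8 members and the 48 tested genes of the 6 related lists, blue where lower, orange where higher and grey where not called. The fall of fzy at -0.91 and that of feo at -0.65 exceed the fall of every tested gene in the 6 lists. The rise of bora at 0.63 exceeds that of pim at 0.48. The APC/C and the G1/S and DNA synthesis lists hold no coloured gene.

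Some markers of other haemocyte types moved with the treatment too. Of 9 crystal cell and lamellocyte markers, 6 were tested, of which 4 rose and 0 fell, beside the 41.1% called and 23.4% higher among all tested genes. Those that rose were PPO1, PPO2, PPO3 and betaTub60D, by 1.54, 0.76, 0.66 and 1.35. The tested markers lz and mys did not pass, at 0.23 and 0.15 (limma adjusted p = 0.361 and 0.169), and lz read only 3.69 to 4.41. ItgaPS4, atilla and peb were not tested, the last 2 being at or below 4 on all arrays. The summed level of the 9 markers on the linear scale was 7437 to 7868 on the GST arrays and 11877 to 13055 on the ISWI arrays. PPO2 and PPO1 weigh heavily in the rise of this sum. Their log2 means were 11.58 and 9.66 in the GST group and 12.34 and 11.21 in the ISWI group. Of the plasmatocyte markers, 2 of 10 rose and 3 fell, beside the same 41.1%. Those that rose were eater (0.75) and crq (0.22), and those that fell were NimC1 (-0.86), Pxn (-0.29) and srp (-0.28). The plasmatocyte markers summed to 113652 to 118208 on the GST arrays and 108514 to 117813 on the ISWI arrays. The highest of them, vkg and Col4a1 (GST means 14.89 and 14.70 on the log2 scale), weigh most in these sums. With GST replicate 1 or GST replicate 3 left out, 1 plasmatocyte marker rose and 1 fell, and with GST replicate 2 or ISWI replicate 2 left out, 2 rose and 1 fell. The part of these shifts in the changes of fzy, feo, Bub3 and pim was not tested.

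By the gene order of genome Release 6, the members are spread over the chromosome arms 2L (fzy and pim), 2R (thr and CycB), 3L (Sse), 3R (Bub3 and CycB3) and X (feo). The nearest tested gene on each side of the 8 members was called in 5 of 16 cases, against 41.1% of all tested genes. Not all of them were adjacent to the member. There were 9 untested genes between Bub3 and alph, 9 between CycB3 and CG7006, which was called, and 10 between CycB and CG13531. The genes beside fzy, cni and cact, did not pass, at -0.02 and 0.15 (limma adjusted p = 0.824 and 0.163). Beside pim, Cand1 rose by 0.28, and beside feo, CG2202 fell by 0.43 (limma adjusted p = 0.0119 and 0.00933). On their other sides, CG5056 by pim and sofe by feo did not pass, at 0.08 and 0.02 (limma adjusted p = 0.504 and 0.813). Cap-D2 beside Bub3 rose by 0.25 (limma adjusted p = 0.0473) where Bub3 fell. On the other side of Bub3, alph did not pass, at 0.06 (limma adjusted p = 0.589).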

How the data were processed

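Total RNA of 6 SL2 cultures was measured on 1 biotin-labelled array each, and the titles gave the treatment of each sample. The deposited values were log2 values per probe set, made with GCRMA per the submitters' processing notes. The sources used here do not give its version, the array type or the scanner. GCRMA in general removes background and normalizes quantiles, so a global shift in RNA content is not visible. No signal counts exist for arrays, and the number of arrays limits the precision.

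Of 18952 probe sets, 183 controls were left out. Names came from the platform annotation, with 1 symbol for 13646 probe sets, of which 13543 matched a RefSeq gene table of Release 6 for current names and gene order. Probe sets over 4 on the log2 scale in 3 or more of 6 arrays were tested (7390). The linear model of limma 3.58.1 (R 4.3.3) was fitted to all 6 arrays with variance moderated along an intensity trend. Its two-sided p-values were adjusted by Benjamini-Hochberg over the 7390 probe sets and called below 0.05. The scripts were tested on simulated data.

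Members and lists were chosen with earlier results of these data known, and no list was tested as a set. Named by rule were Iswi, all members and up to 4 called genes per pathway list. Neighbours were named by position, and marker genes and other uncalled list genes after their values were seen. The titles give only replicate numbers, which were not taken as pairs in the main fit. No sequences were used. Alternatives were other filters, normalizations, variance settings, array weights, a replicate block, a stricter threshold and leaving out each array.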

Additional observations from a re-analysis of the deposited data

How the results depend on the processing

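The 4 called members kept their direction and passed in each of the 15 other settings. Over these settings the change was -0.98 to -0.87 for fzy (limma adjusted p 4.19e-05 to 0.00126) and -0.71 to -0.61 for feo (0.000222 to 0.00457). It was -0.31 to -0.27 for Bub3 (0.00109 to 0.0111) and 0.42 to 0.52 for pim (0.002 to 0.0138). The difference of group medians, which has no test, was 0.40 for pim. With 1 array left out, Iswi ran from -3.10 to -2.81, thr from -0.20 to -0.14, Sse from 0.08 to 0.34, CycB3 from -0.25 to -0.12 and CycB from -0.04 to 0.10, and none of these last 4 passed in any setting. The sign of CycB turned to -0.0022 with centred arrays, -0.04 without ISWI replicate 3 and -0.02 without GST replicate 2, the cause of which was not tested. At an adjusted p below 0.01, 1749 probe sets of the whole table passed in place of 2974, and 3 genes of the 6 related lists in place of 7, as that threshold is stricter. Leaving out 1 array gave 2100 to 3023 probe sets and 4 to 10 list genes, the lowest of the latter without GST replicate 3. Same-numbered GST and ISWI arrays had correlations of -0.18, 0.12 and 0.06 between their deviations from the group means. Those of differently numbered arrays ran from -0.24 to 0.14. The numbers were not taken as pairs, though so few arrays cannot settle whether the cultures were paired. With the replicate block 4 members and 7 list genes passed, as without it.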
